A study of Mus musculus with 4 samples.

Results

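10 genes of the G1 checkpoint were followed in B16F10 mouse melanoma cells grown in 4 settings: the D-type cyclins Ccnd1, Ccnd2 and Ccnd3, their kinases Cdk4 and Cdk6, the CDK inhibitors Cdkn1a, Cdkn1b, Cdkn2a and Cdkn2b, and the retinoblastoma gene Rb1. They were found by symbol in the table of read counts, which held all 10 members among 24527 genes. The study asked how closely melanoma cells in a spheroid with fibroblasts resemble those of a tumor, and it compared 1 library of each setting. The 2D monoculture was B16F10 cells alone, the 2D co-culture was B16F10 cells with NIH/3T3 mouse fibroblasts, and the spheroid was a hanging drop of B16F10 and NIH/3T3 cells seeded at 1 to 4. The tumor came from B16F10 cells injected under the skin of female C57BL/6 mice 1 year of age. All 4 libraries are labelled wild type. By the study's methods the cultured cells were a B16F10 line with cytoplasmic green fluorescent protein (Linterna), and living fluorescent cells were sorted away from the fibroblasts. For the tumor the methods speak of sorted cells, whereas its library is labelled as snap frozen tumor, and how many mice it pools is not stated.

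The D cyclins bind CDK4 or CDK6, and the complexes phosphorylate the retinoblastoma protein, which then releases the E2F factors that switch on genes of DNA replication. The CDKN1 proteins p21 and p27 bind cyclin-CDK complexes, while the INK4 proteins p16 (from Cdkn2a) and p15 (from Cdkn2b) bind CDK4 and CDK6 themselves. Cdkn2a also encodes p19ARF, which stabilises p53. Loss of the INK4 locus and high activity of CDK4 are common in melanoma, and both the B16F10 and NIH/3T3 lines are known for lacking p16.

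Sequencing depth was similar, between 118896900 and 150028663 counted reads per library, and the limit for a library without reads, 3 reads, corresponded to 0.0185 to 0.0262 CPM (counts per 1000000 reads, scaled by TMM, the trimmed mean of M values). With 1 library per setting there was no replicate check and no p-value. The study's methods give 3 as the number of RNA isolations, and whether a library pools them is not stated. Intervals are exact 95% binomial intervals of the counts and cover counting error only. All 8 melanocyte markers had reads in every library, with a sum of 16911 CPM in the monoculture, 15306 in the co-culture, 11420 in the spheroid and 20122 in the tumor. Markers of other cells were far higher in the tumor library than in the cultures. The 9 fibroblast markers summed to 17.6 CPM in the monoculture, 679 in the co-culture, 36.5 in the spheroid and 2728 in the tumor, the 12 myeloid markers to between 11.7 and 30.5 CPM in the cultures against 2187 in the tumor, and the 5 skeletal muscle markers to between 3.28 and 12.4 CPM against 4599. Endothelial markers (10 genes) lay between 27.8 and 78.7 CPM in the cultures and at 350 in the tumor, and adipocyte markers (3 genes) between 0.639 and 1.19 against 722. Lymphoid (8 genes) and keratinocyte markers (4 genes) stayed under 10 CPM in every library. The part of these cells in the results was not tested. In such bulk libraries, fewer cells of a type and less RNA per cell cannot be told apart.

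The gene with the highest CPM, not scaled by length, was Ccnd2 in the monoculture (849) and Cdkn1a in the spheroid (813), but Ccnd1 in the co-culture (599) and Cdk4 in the tumor (339). Cdkn2a and Cdkn2b were lowest in every library. Of the 10 genes, 8 had a mean of at least 1 CPM and were counted against a 2-fold threshold, with 1 CPM added to each value, beside all 12728 genes that passed the same filter. Between the spheroid and the monoculture 1 of the 8, Cdkn1b, was over 2-fold higher and 0 were lower, while 11.2% of all genes were higher and 17.9% lower. Between the co-culture and the monoculture none passed in either direction, against 3.79% of all genes higher and 9.51% lower. Between the spheroid and the co-culture Cdkn1b was higher and Ccnd1 lower, and 9.54% and 8.46% of all genes were higher and lower.

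Against the tumor the counts were larger, and so was the background. In the spheroid 5 of the 8 (Ccnd1, Ccnd2, Ccnd3, Cdkn1a and Cdkn1b) were over 2-fold higher and 0 lower, where 26.8% of all genes were higher and 27.6% lower. With total count scaling 3 of them passed, and the log2 ratios of Ccnd1 and Cdkn1b were 0.87 and 0.94. After a correction for GC content and length, described with Ccnd3, 5 again passed but they were other genes in part: Ccnd1 (0.996) and Ccnd3 (0.81) no longer passed, and Cdk6 (1.29) and Rb1 (1.04) did. In the co-culture 4 of the 8 (the D cyclins and Cdkn1a) were higher and 0 lower, where 18.8% of all genes were higher and 20.9% lower. In the monoculture 5 of the 8 (the D cyclins, Cdk6 and Cdkn1a) were higher and 0 lower, where 18.2% of all genes were higher and 14.8% lower. Taken over the 8 members, median log2 ratios to the tumor were 1.25 (spheroid), 1.28 (co-culture) and 1.5 (monoculture), against 0.08, 0.11 and 0.14 over all genes. These 3 comparisons share the tumor library, so they are not independent of each other.

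**Figure D1:**
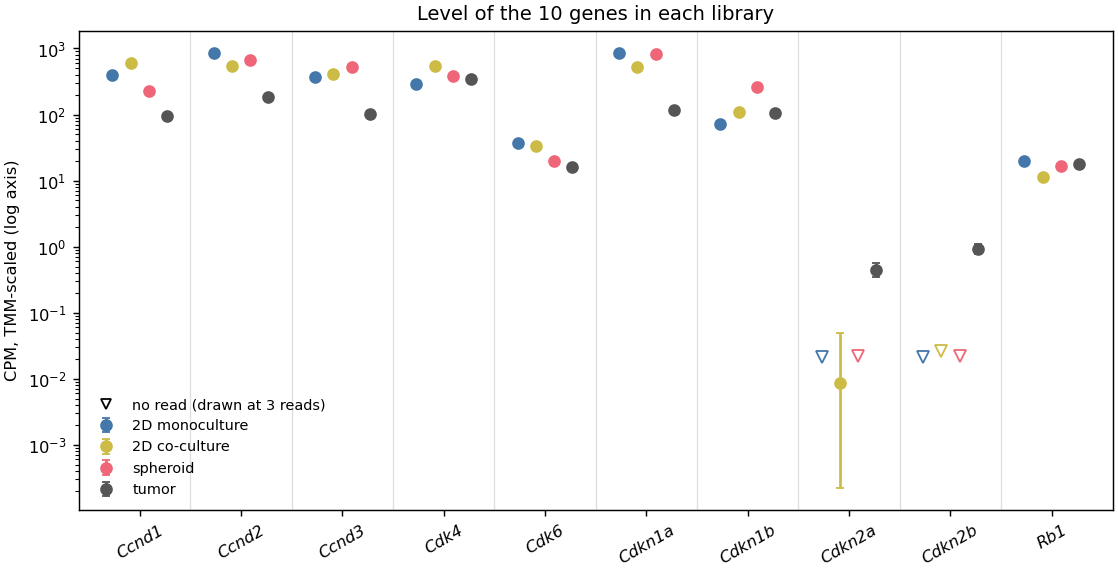
Level of each of the 10 genes (CPM, log axis) in the 2D monoculture, 2D co-culture, spheroid and tumor libraries, 1 point per library with its 95% counting interval; open triangles stand for libraries with no read and are drawn at the level of 3 reads. The D cyclins and Cdkn1a are lowest in the tumor, Cdkn1b is highest in the spheroid at 262 CPM, and Cdkn2a and Cdkn2b have more than 1 read in the tumor alone.

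The D cyclins, which link growth signals to the cell cycle, were all lowest in the tumor but had their highest level in a different setting each. Ccnd1 (chr7:144929931-144939925, minus strand; all gene positions are from GRCm38, the mm10 build of the files) was at 390 CPM in the monoculture, 599 in the co-culture, 225 in the spheroid and 96.2 in the tumor. It was therefore highest beside fibroblasts in 2D, the culture whose fibroblast markers were also highest, and lowest among the cultures in the spheroid. The spheroid lay 2.67-fold below the co-culture, a log2 ratio of -1.42 (95% interval -1.43 to -1.40), and 1.74-fold below the monoculture. The co-culture lay 6.23-fold above the tumor, a log2 ratio of 2.64 (2.61 to 2.66).

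Ccnd2 (chr6:127125162-127152193, minus strand) was at 849 CPM in the monoculture, 550 in the co-culture, 660 in the spheroid and 185 in the tumor. Its order among the cultures was thus not that of Ccnd1, since the co-culture held the least Ccnd2 and the most Ccnd1. The log2 ratio of co-culture to monoculture was -0.63 (-0.64 to -0.61) for Ccnd2 and 0.62 (0.60 to 0.64) for Ccnd1. Against the tumor the Ccnd2 ratios were 2.20 in the monoculture, 1.57 in the co-culture and 1.84 in the spheroid.

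Ccnd3 (chr17:47505051-47599691, plus strand) was at 373 CPM in the monoculture, 411 in the co-culture, 521 in the spheroid and 101 in the tumor. The spheroid was its highest library, 5.13-fold above the tumor at a log2 ratio of 2.36 (2.34 to 2.38), and 1.40-fold above the monoculture. Ccnd3 is rich in G and C, at 56.7% of the bases of its longest transcript, above 85.3% of the genes tested. The ratios in these libraries moved with GC content: across 12466 genes with a known sequence, Spearman's correlation of the log2 ratio with GC content was 0.525 for spheroid against tumor, 0.464 for spheroid against monoculture and 0.200 for co-culture against monoculture, with all genes of a comparison sharing the same pair of libraries. After the median of each class of GC content and length was removed, the Ccnd3 ratio of spheroid to tumor was 0.81, that of co-culture to tumor 0.94 and that of monoculture to tumor 0.92, all under 2-fold, and the ratio of spheroid to monoculture was -0.23 in place of 0.48. The Ccnd2 ratio of spheroid to monoculture also changed sign, from -0.36 to 0.11, whereas the Ccnd1 ratio of spheroid to co-culture stayed at -1.37.

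Within a library, shares of a family do not depend on how libraries are scaled. They are not corrected for GC content, so differences in share between libraries can still carry it. The Ccnd3 ratio of spheroid to monoculture, for example, went from 0.48 to -0.23 with the correction. Per kilobase of annotated exon, Ccnd1 made up 38.4% of the D cyclin messages in the monoculture, 54.7% in the co-culture, 26.9% in the spheroid and 39.6% in the tumor. Ccnd2 made up 41.8%, 25.1%, 39.6% and 38.0%, and Ccnd3 19.7%, 20.2%, 33.5% and 22.4%, in the same order of libraries. Ccnd1 thus led in the co-culture, Ccnd2 led in the spheroid, and Ccnd1 and Ccnd2 lay closest to each other in the monoculture and the tumor. With the longest transcript as the length, which shortens Ccnd3 from 8775 to 3858 bases, Ccnd3 led in the spheroid with 45.1% and Ccnd2 led in the tumor with 35.9%, and Ccnd1 still led in the co-culture with 45.3%. Summed per kilobase, the D cyclins came to 216 CPM in the monoculture, 233 in the co-culture, 177 in the spheroid and 51.6 in the tumor.

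**Figure D2:**
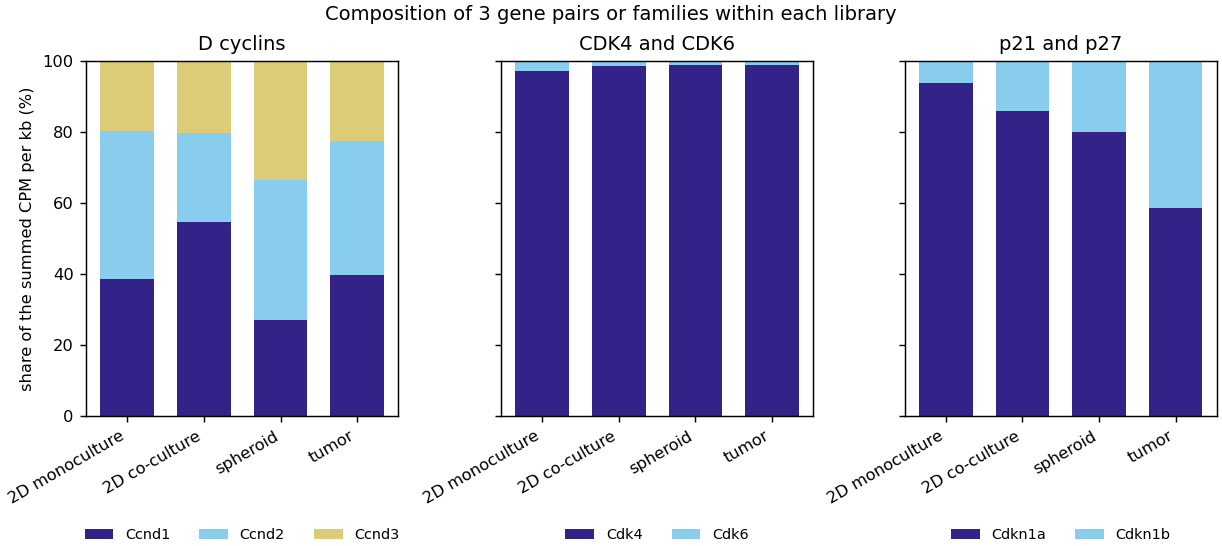
Share (%) of each gene in the summed CPM per kilobase of its family, with 1 bar per library, for the D cyclins, for Cdk4 and Cdk6, and for Cdkn1a with Cdkn1b. Ccnd1 holds 54.7% of the D cyclins in the co-culture and 26.9% in the spheroid, Cdk4 holds over 97% of its pair everywhere, and Cdkn1b goes from 6.27% in the monoculture to 41.4% in the tumor. Shares are not corrected for GC content.

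Cdk4 (chr10:127063534-127067920, plus strand), the catalytic partner of the D cyclins, was at 291 CPM in the monoculture, 543 in the co-culture, 377 in the spheroid and 339 in the tumor. Its range over the libraries, 1.86-fold, was the second narrowest of the 8 genes, and unlike Cdk6 it was not lowest in the tumor. Its log2 ratio of co-culture to monoculture was 0.90 (0.88 to 0.92), under 2-fold, and 1.02 with upper quartile scaling. The ratio of spheroid to tumor was 0.15 (0.14 to 0.17) and turned to -0.31 after the correction for GC content and length. Cdk4 shares 641 exon bases with Tspan31 on the opposite strand, and reads of both genes cannot be told apart there, since no strand setting of the counting is given. Tspan31 was at 172, 183, 352 and 110 CPM in the monoculture, co-culture, spheroid and tumor.

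The stretch just before the start of Cdk4 is shown because it holds an unusual number of copies of the E-box CACGTG, the letters bound by MYC and by the melanocyte factor MITF. The letters, on the plus strand at chr10:127063351-127063534, were taken from RefSeq on GRCm38.p6 with the E-boxes in capitals, and a stretch with the single E-box of the Cdk6 window, chr5:3343661-3343690 on the plus strand, is set under it.
Cdk4: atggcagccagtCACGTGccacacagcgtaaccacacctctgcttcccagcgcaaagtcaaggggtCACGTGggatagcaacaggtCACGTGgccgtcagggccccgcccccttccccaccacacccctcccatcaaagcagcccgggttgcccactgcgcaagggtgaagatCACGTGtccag
Cdk6: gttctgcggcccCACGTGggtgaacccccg

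The windows ran from 250 bases before to 50 bases after each annotated start. The Cdk4 window held 4 E-boxes, a number reached in 8 of 32851 windows (0.0244%), and at least 1 E-box was found in 7.15% of windows. The E-box reads the same on both strands. The windows matched 7 of the 10 genes, and the windows of Cdkn1a, Cdkn1b, Cdkn2a, Cdkn2b and Ccnd3 held no E-box. The motif was chosen after the sequences were seen. Myc, the gene of a factor known to bind these letters, was at 43.3 CPM in the monoculture, 153 in the co-culture, 73.7 in the spheroid and 40.6 in the tumor, and Mitf was at 416, 223, 70.3 and 708 CPM. Cdk4 and Myc were both highest in the co-culture and second in the spheroid, but Cdk4 was lowest in the monoculture and Myc in the tumor. Mitf followed another order. The place of Cdk4 in the spheroid was not firm, since its log2 ratio to the tumor, 0.15, was -0.31 with the correction and also changed sign with total count scaling. Whether either factor acts on Cdk4 was not tested. No binding was measured.

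Cdk6 (chr5:3341485-3531008, plus strand), the second partner of the D cyclins, was far less abundant, at 37.2 CPM in the monoculture, 33.6 in the co-culture, 19.8 in the spheroid and 16.3 in the tumor. The monoculture lay 2.28-fold above the tumor, a log2 ratio of 1.19 (1.12 to 1.26), and the co-culture 2.06-fold, which fell just under the threshold once 1 CPM was added. Cdk6 is long and poor in G and C (45.1%), and several of its ratios depended on the correction. Its log2 ratio of spheroid to monoculture was -0.91 (-0.98 to -0.84) and became 0.32, and that of spheroid to tumor was 0.28 and became 1.29, or -0.08 with total count scaling. The ratio of co-culture to tumor went from 1.04 to 1.71 with the correction, and that of monoculture to tumor was then 1.01, under 2-fold once 1 CPM was added. Per kilobase of exon Cdk4 exceeded Cdk6 33.7-fold (32.8 to 34.7) in the monoculture, 69.7-fold in the co-culture, 81.9-fold in the spheroid and 89.4-fold (86.0 to 93.0) in the tumor. Cdk4 was thus at least 97.1% of the pair in every library. The differences between libraries in this ratio are not corrected for GC content. With the correction, the log2 ratio of spheroid to monoculture was 0.04 for Cdk4 and 0.32 for Cdk6, which reversed the order of these libraries.

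Cdkn1a, which encodes p21 and is a classical target of p53, lies at chr17:29090976-29100727 on the plus strand. It was at 847 CPM in the monoculture, 515 in the co-culture, 813 in the spheroid and 118 in the tumor. The spheroid and the monoculture were close, at a log2 ratio of -0.06 (-0.07 to -0.05) that was 0.06 with upper quartile scaling, the co-culture was lower, and the tumor was lowest by far. The monoculture lay 7.18-fold above the tumor, at 2.84 (2.82 to 2.87), and the spheroid 6.89-fold, at 2.78 (2.76 to 2.81). After the correction for GC content and length these ratios were 2.31 and 1.86, and that of spheroid to monoculture was -0.51. Of the 8 genes it had the widest range over the 4 libraries, 7.18-fold from the lowest to the highest.

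A stretch before the first annotated start of Cdkn1a is shown, since it carries a pair of CATG cores 6 bases apart, the layout of known p53 response elements. It lies on the plus strand at chr17:29090919-29090956, from RefSeq on GRCm38.p6, with the cores and the bases between them in capitals.
Cdkn1a: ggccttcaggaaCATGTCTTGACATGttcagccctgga

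The pair stood 48 bases before the first annotated start and 2838 bases before the second. CATG at this spacing, which reads the same on both strands, was found in 0.712% of the 32851 windows and in none of the windows of the other members. It was chosen after the sequences were seen, and a match of letters is no evidence of a bound site. Trp53, the gene of p53, was at 160 CPM in the monoculture, 232 in the co-culture, 252 in the spheroid and 47.4 in the tumor, so that it shared with Cdkn1a its lowest library but not the low level in the co-culture.

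Cdkn1b (chr6:134920401-134925513, plus strand) encodes p27, the inhibitor of CDK2 complexes that accumulates in resting cells. It was at 72.5 CPM in the monoculture, 109 in the co-culture, 262 in the spheroid and 107 in the tumor. The spheroid stood apart from the other libraries, which lay within 1.5-fold of each other. Its level was 3.61-fold that of the monoculture, a log2 ratio of 1.85 (1.82 to 1.88), 2.41-fold that of the co-culture, 1.27 (1.24 to 1.30), and 2.45-fold that of the tumor, 1.29 (1.27 to 1.32). Cdkn1b is poor in G and C (43.1%), and the correction made these ratios larger, at 2.70, 1.67 and 2.47. It also raised the log2 ratio of co-culture to monoculture from 0.58 to 1.04, past 2-fold. With total count scaling the ratio to the tumor was 0.94, under 2-fold. The log2 ratio of co-culture to tumor was 0.03, with a counting interval that included 0 (-0.01 to 0.06), but it was 0.68 with the correction and -0.24 with total count scaling, so that its direction depended on the processing.

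The balance of p21 and p27 messages therefore differed between the libraries. Per kilobase of exon Cdkn1a exceeded Cdkn1b 15.0-fold (14.7 to 15.3) in the monoculture, 6.07-fold in the co-culture, 3.98-fold in the spheroid and 1.42-fold (1.39 to 1.45) in the tumor. These ratios between genes are not corrected for GC content. With the correction for GC content and length, the log2 ratio of spheroid to tumor was 1.86 for Cdkn1a and 2.47 for Cdkn1b. The order of spheroid and tumor in this balance was then reversed. Set against the D cyclins, in a ratio chosen after the values were seen, the sum of p21 and p27 messages was 1.18 of the summed D cyclins in the monoculture, 0.726 in the co-culture, 1.62 in the spheroid and 1.10 in the tumor. The co-culture was the lowest and the spheroid the highest of these ratios, also with the longest transcripts as lengths, at 0.768 and 1.5.

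**Figure D3:**
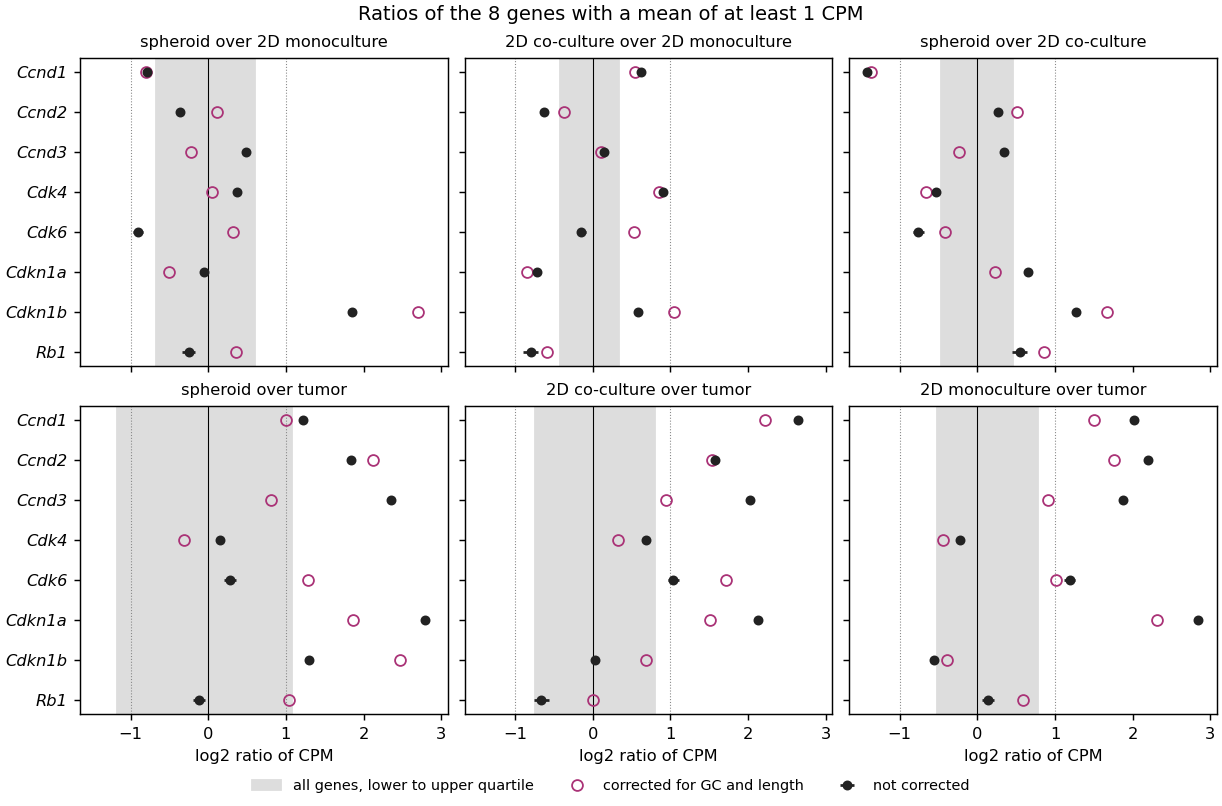
Log2 ratios of CPM for the 8 members whose mean reached 1 CPM, with 1 panel for each of the 6 comparisons; filled points carry 95% counting intervals, open circles are corrected for GC content and length, grey bands run from the lower to the upper quartile of 12728 genes, and dotted lines mark 2-fold. Cdkn1b lies past 2-fold in all 3 panels with the spheroid on top, and Ccnd1 lies at -1.42 between spheroid and co-culture. Ccnd2, Ccnd3, Cdk6 and Rb1 change sign with the correction between spheroid and monoculture.

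The INK4 inhibitors were all but absent from the cultures. Cdkn2a (chr4:89274471-89294653, minus strand) had 0 reads in the monoculture, 1 in the co-culture, 0 in the spheroid and 73 in the tumor, where its level was 0.450 CPM (0.352 to 0.565). Cdkn2b (chr4:89306299-89311039, minus strand) had 0 reads in each culture and 150 in the tumor, at 0.924 CPM (0.782 to 1.08). Cdkn2b was thus at least 43.9-fold lower in the monoculture than in the tumor, 35.3-fold in the co-culture and 41.9-fold in the spheroid, with 3 reads taken for a library at 0. Cdkn2a was at least 21.4-fold lower in the monoculture and 20.4-fold in the spheroid, and its log2 ratio of co-culture to tumor, resting on 1 read, was -5.69 (-11.0 to -3.16). The tumor library in which these reads lay was also the one with 2728 CPM of fibroblast, 2187 CPM of myeloid and 4599 CPM of muscle markers, and which cells the reads came from was not tested.

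The neighbours of the pair on chromosome 4 were looked at after these values were seen. Mtap, an enzyme of methionine salvage 93.4 kb away, was at 263 CPM in the monoculture, 349 in the co-culture, 102 in the spheroid and 163 in the tumor. Klhl9, 552 kb away, was at 106, 111, 76.2 and 148 CPM. Of 45 genes of the table within 2 Mb on either side, 5 had at least 1 CPM in the monoculture (Mllt3, Focad, Hacd4, Klhl9 and Mtap). All 5 lay on the side of Mtap, but so did most of the 45. The other side held only Dmrta1, Zfp352, Gm12633 and Elavl2, so the side says little. Gm12610, a long noncoding RNA annotated across Cdkn2b, had 3 reads in the monoculture, 5 in the co-culture, 4 in the spheroid and 6 in the tumor, and the counts do not show where along this gene they lie. Reads of RNA do not show whether DNA is present.

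**Figure D4:**
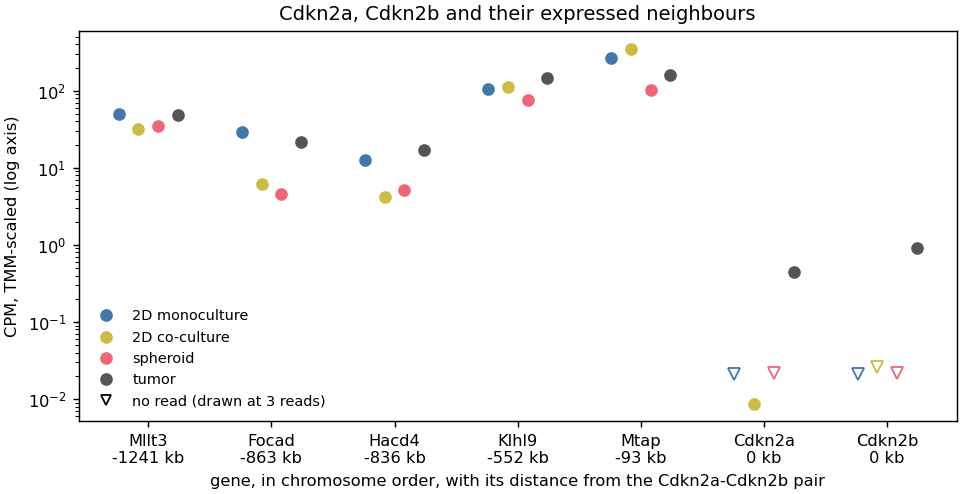
Level (CPM, log axis) of Cdkn2a, Cdkn2b and the 5 genes within 2 Mb that had at least 1 CPM in the monoculture, in chromosome order with the distance from the pair in kilobases; each point is 1 library and open triangles are libraries with no read, drawn at 3 reads. Mtap has between 102 and 349 CPM in every library, while Cdkn2a and Cdkn2b have at most 1 read in the cultures.

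Rb1 (chr14:73183673-73325822, minus strand), whose protein is the substrate of the CDK4 and CDK6 complexes, was low. Its level was 19.8 CPM in the monoculture, 11.4 in the co-culture, 16.6 in the spheroid and 18.1 in the tumor. The range was 1.74-fold, the narrowest of the 8 genes, with the co-culture lowest. The log2 ratio of co-culture to monoculture was -0.80 (-0.89 to -0.70), and that of spheroid to tumor was -0.12 (-0.20 to -0.04). Rb1 has the lowest GC content of the 8 genes (41.2%, above 9.55% of the genes tested), and after the correction the ratio of spheroid to tumor was 1.04 and that of spheroid to monoculture 0.36 in place of -0.25. Rb1 shares exon bases on the opposite strand with Lpar6 (408 bases), at 4.04, 11.1, 6.38 and 22.0 CPM in the monoculture, co-culture, spheroid and tumor, and with Rcbtb2 (488 bases), at 24.1, 24.9, 15.4 and 45.3 CPM, both of which were highest in the tumor. Among the other members, Ccnd1 shares 1100 bases with Oraov1, which was at 15.7 to 18.5 CPM in every library, Ccnd3 shares 361 with Bysl, which was at 102, 126, 106 and 34.7 CPM and lowest in the tumor as Ccnd3 was, and Ccnd2 shares 368 with 9330179D12Rik, which was under 1 CPM.

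Ordered by CPM per kilobase, Cdkn1a led in the monoculture (238) and in the spheroid (229), and Cdk4 led in the co-culture (167) and in the tumor (104). Ccnd2 and Cdk4 were next to each other in the monoculture, at 90.2 and 89.7, with counting intervals that overlapped, and Cdkn2a and Cdkn2b could not be ordered in any culture. No other neighbours in the order had overlapping intervals. In the spheroid Cdkn1b (57.5) stood above Ccnd1 (47.7), and in the tumor it stood above all D cyclins (23.4 against 20.4, 19.6 and 11.6). In the monoculture it stood under each of them (15.9 against 82.8, 90.2 and 42.5). The places of Cdkn1b in the spheroid and the tumor depended on the length used. With the longest transcript as the length, Cdkn1b stood under Ccnd1 in the spheroid and under all D cyclins in the tumor. That length shortens Ccnd1 from 4709 to 3740 bases and Ccnd2 from 9409 to 6330, and leaves Cdkn1b at 4552. Per kilobase of annotated exon, the Rb1 and Cdk6 messages stayed under 4 CPM throughout.

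The genes that the checkpoint controls were low in the spheroid. Of 14 E2F target genes, which encode replication factors and enzymes of nucleotide synthesis, 10 were over 2-fold lower in the spheroid than in the monoculture and 0 higher, where 17.9% and 11.2% of all genes were, with a median log2 ratio of -1.30 against 0.05 over all genes. Against the co-culture 14 of 14 were over 2-fold lower (8.46% of all genes), with a median of -2.09 against -0.01, and against the tumor 9 were lower and 1 higher (27.6% and 26.8% of all genes), with a median of -1.22 against 0.08. Cdc6, which loads the replicative helicase, was at 46.2 CPM in the monoculture, 55.8 in the co-culture, 5.06 in the spheroid and 53.4 in the tumor. Rrm1, a subunit of ribonucleotide reductase, was at 208, 133, 27.4 and 407 CPM. Cdt1, the partner of Cdc6, moved least between spheroid and monoculture, at 122 and 99.8 CPM, and was higher in the spheroid than in the tumor, at a log2 ratio of 1.55 (1.51 to 1.60).

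The co-culture held more of these targets than the monoculture, with 12 of 14 above 0. The median log2 ratio was 0.70, against 0.01 over all genes. However, 1 gene alone, the thymidine kinase Tk1, passed 2-fold, where 3.79% of all genes did. Between monoculture and tumor the median was 0.03, and -0.32 after the correction for GC content and length. The medians with the spheroid lay between -2.01 and -1.49 after the correction.

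Around them, a list of 8 genes held the E- and A-type cyclins and Cdk2, but also Cdc25a, Cdk7 and the partners of Cdk7. Its median log2 ratio between spheroid and monoculture was -0.13, with 0 higher and 2 lower, and is not that of the cyclins alone. Over all genes the median was 0.05, with 11.2% higher and 17.9% lower. A share of 2 in 8 is near that background. The 2 lower genes were Ccne2, an E-type cyclin, at 1.52 CPM in the spheroid and 9.50 in the monoculture, and Ccna2, cyclin A, at 62.0 and 131 CPM. Ccne1, the other E-type cyclin, was also lower, at 43.9 CPM in the spheroid and 71.7 in the monoculture. Cdk2, the kinase that p27 inhibits, was higher in the spheroid, at 642 CPM against 337. The 10 E2F and DP factors had a median of -0.28 in the same comparison, with 1 higher and 4 lower beside the same background. Against the tumor their median was 0.67, with 2 higher and 0 lower where 26.8% and 27.6% of all genes were, and it turned to -0.31 with the correction. E2f5, which works with the pocket protein p130, was at 19.9 CPM in the monoculture, 23.4 in the co-culture, 80.4 in the spheroid and 28.5 in the tumor, whereas E2f8, which represses E2F targets in S phase, was at 25.9, 38.1, 9.67 and 12.5 CPM.

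Other inhibitors of the same kinases were expressed where Cdkn2a and Cdkn2b were not. Cdkn2d, which encodes the INK4 protein p19INK4d, was at 48.1 CPM in the monoculture, 58.5 in the co-culture, 127 in the spheroid and 42.9 in the tumor, and Cdkn2c (p18) was at 65.8, 83.2, 123 and 77.8 CPM. Both were thus highest in the spheroid, as Cdkn1b was, with Cdkn2d past 2-fold against each other library. Cdkn1c, the remaining inhibitor of this list, was instead highest in the tumor, at 0.863, 0.376, 1.13 and 3.30 CPM in the same order. The pocket protein genes Rbl1 and Rbl2, relatives of Rb1, were lower in the spheroid than in the monoculture, at 15.4 against 47.9 CPM and 22.5 against 45.9 CPM. Over all 5 genes of this list, 1 was over 2-fold higher and 1 lower in the spheroid than in the monoculture, close to the 11.2% and 17.9% of all genes. The median of 0.19 became -0.41 with the correction. The median of 0.19 is the value of Cdkn1c alone, which reached a mean of 1 CPM only through the tumor. It therefore does not describe the more abundant genes of the list, which lay on both sides of it.

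Among 15 regulators upstream of the D cyclins and inhibitors, 14 had a mean of at least 1 CPM, and 2 of these were over 2-fold higher and 4 lower in the spheroid than in the monoculture, with a median log2 ratio of 0.29 against 0.05 over all genes, of which 11.2% were higher and 17.9% lower. The share that was higher is close to that background. Egr1, an early gene of growth signals, was at 12.1 CPM in the monoculture, 57.0 in the co-culture, 168 in the spheroid and 9.71 in the tumor. Atf4, the factor of the integrated stress response, was at 671, 1229, 2713 and 407 CPM. Mitf was lowest in the spheroid, at 70.3 CPM, and Ezh2, which silences the INK4 locus in many cells, was at 108, 67.4, 24.3 and 89.7 CPM.

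**Figure D5:**
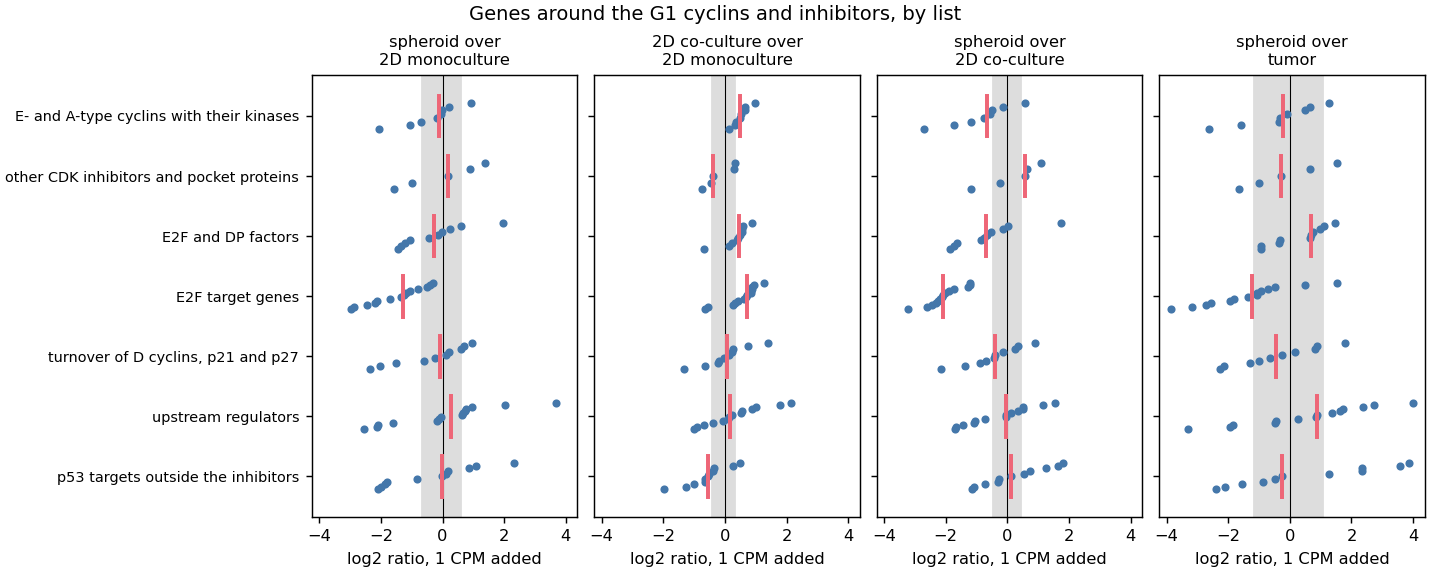
Log2 ratios, with 1 CPM added, of the genes of 7 lists around the checkpoint in 4 comparisons; each blue point is a gene whose mean reached 1 CPM, red bars are list medians, and grey bands run from the lower to the upper quartile of all 12728 genes. The 14 E2F targets all lie under 0 between spheroid and co-culture, with a median of -2.09, and the other lists spread on both sides of 0 in this comparison.

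For the 4 members with the widest range, the genes of most similar profile were sought among 9588 genes whose mean reached 10 CPM, by the root mean square difference of centred log2 values over the 4 libraries. Nearest to Cdkn1a were Cul7 (a difference of 0.06), Map6 (0.11) and Meis3 (0.14), and nearest to Ccnd1 were Cad (0.11), Hmga2 (0.16) and AI506816 (0.16). Nearest to Ccnd2 were Cst6 (0.08), Mfsd6 (0.08) and Syt11 (0.08), and nearest to Ccnd3 were Zfp628 (0.02), Nfic (0.02) and Midn (0.03). Cul7, for example, was at 632, 417, 585 and 88.2 CPM in the monoculture, co-culture, spheroid and tumor. With 4 points a profile, many genes come close to any given one.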

How the data were processed

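RNA of 4 libraries, 1 per setting, was poly(A)-selected, made into libraries with a NEBNext Ultra II kit and sequenced as paired reads. The authors deposited raw read counts per gene symbol, without normalization; their processing notes name Trimmomatic, STAR, featureCounts and the mm10 build, with no versions, and the sources used here do not give the annotation release or the strand setting. The authors' own comparisons used NOISeq and GFOLD, which were not run here.

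The deposited counts were turned into CPM with the TMM factors of edgeR 4.0.16 (R 4.3.3), with DESeq2 1.42.0 size factors, total counts, upper quartiles and TMM factors of each pair of libraries as alternatives. Other steps used Python 3.11.15, numpy 2.4.6, pandas 2.3.3, scipy 1.17.1 and matplotlib 3.10.9. Log2 ratios of single genes have no pseudocount and exact binomial 95% intervals; counts past 2-fold and list medians are over genes whose mean reached 1 CPM, with 1 CPM added. The alternatives were 0.1 CPM added, a mean of at least 10 CPM or no minimum, and 1.5-fold. The correction for GC content and length takes off the median of each of 10 by 10 classes; 97.9% of the genes tested had both values, from GENCODE on GRCm38, which is the build named in the processing notes. Levels between genes are CPM per kilobase of the union of annotated exons, or of the longest transcript. The script was tested on simulated data. Promoter windows are from RefSeq (GRCm38.p6).

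The members and the 7 pathway and 8 marker lists were chosen with earlier results of these data known. Genes named are all 10 members, the 2 highest and 2 lowest of a list in a comparison, and, for the 4 members of widest range, the 3 genes of nearest profile; Myc, Mitf, Trp53, Cdkn2c the genes that share exon bases with a member and the neighbours on chromosome 4 are also given in settings that this rule did not select, after their values were seen. No test across conditions was made.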

Additional observations from a re-analysis of the deposited data

How the results depend on the processing

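No paired analysis was possible because there is 1 library for each setting. Of 48 ratios of the 8 genes, 36 kept their sign under every alternative and 12 did not; most of the changes came with the correction for GC content and length. The number of the 8 genes past the threshold changed under these alternatives. At 1.5-fold, 2 were lower in the spheroid than in the monoculture, 2 were higher and 3 lower in the co-culture than in the monoculture, 2 were higher and 2 lower in the spheroid than in the co-culture, and 6 were higher and 1 lower in the co-culture than in the tumor. In the co-culture against the monoculture 1 was higher with upper quartile scaling (Cdk4) and 1 with the correction (Cdkn1b). Total count scaling left 3 higher in the spheroid than in the tumor, and the correction left 3 higher in the monoculture than in the tumor, where total count and upper quartile scaling each left 4. With 0.1 CPM added, 5 were higher in the co-culture than in the tumor. For the spheroid against the tumor the correction gave 5 as well, but with Cdk6 and Rb1 in place of Ccnd1 and Ccnd3. Against the tumor, total count scaling moved the median of all genes by -0.33, -0.25 and -0.22 for spheroid, co-culture and monoculture, and upper quartile scaling by -0.12, -0.12 and -0.23.

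All genes past 2-fold in either direction numbered 3699, 1693, 2291, 5052 and 4207 for spheroid and co-culture against monoculture, spheroid against co-culture, and co-culture and monoculture against tumor, and 6749, 4071, 5112, 7722 and 7036 at 1.5-fold; for monoculture against tumor they were 2741 with the correction and 2772 at a mean of at least 10 CPM. The share of these that were higher was 49.2%, 47.3% and 55.2% for spheroid, co-culture and monoculture against tumor, and 36.7%, 32.6% and 40.1% with total counts; it was 39.5% for monoculture against tumor and 39.0% in place of 28.5% for co-culture against monoculture with upper quartiles, and 31.1% and 27.5% for co-culture and monoculture against tumor with the correction. Of 42 list medians, 36 moved by less than 1.5-fold with the correction, and all 42 did under the other scalings and with 0.1 CPM added. The ratio of p21 and p27 to D cyclin messages, without length correction, was 0.570, 0.400, 0.764 and 0.587 in the monoculture, co-culture, spheroid and tumor. Genes under 3 reads, here Cdkn2a and Cdkn2b in the cultures, are limited by depth.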

Other observations

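Genes that p53 is known to switch on, other than Cdkn1a, did not share one profile. Of 11 with a mean of at least 1 CPM, 7 were over 2-fold higher and 2 lower in the monoculture than in the tumor, with a median log2 ratio of 1.61 against 0.14 over all genes, of which 18.2% were higher and 14.8% lower. The other cultures had medians on the other side of 0 against the tumor: -0.26 in the spheroid, with 5 higher and 3 lower (26.8% and 27.6% of all genes), and -0.13 in the co-culture, with 4 higher and 2 lower (18.8% and 20.9%). After the correction for GC content and length these medians were 0.33 and 0.72. Bbc3, which encodes the death factor PUMA, was at 42.8 CPM in the monoculture, 28.9 in the co-culture, 91.9 in the spheroid and 5.43 in the tumor, and Sesn2, a stress sensor upstream of mTORC1, was at 103, 77.4, 186 and 14.6 CPM. Mdm2, the ligase that degrades p53, was at 203, 101, 47.3 and 65.8 CPM, and the cyclin G gene Ccng1 at 484, 202, 120 and 221 CPM. Between spheroid and monoculture 2 of the 11 were over 2-fold higher and 4 lower (11.2% and 17.9% of all genes), with a median of -0.01, and -0.61 after the correction. The median of -0.01 is the value of Fas, at 0.132 CPM in the spheroid and 0.140 in the monoculture. At such levels the 1 CPM added holds a ratio near 0. Fas reached a mean of 1 CPM only through the tumor, at 4.95 CPM, and is among the genes counted as lower in each culture than in the tumor. Bbc3 and Sesn2, like Cdkn1a, were lowest in the tumor, while Mdm2 and Ccng1 were lowest in the spheroid.

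The 10 genes of the turnover of D cyclins, p21 and p27 had a median log2 ratio of -0.07 between spheroid and monoculture, with 0 higher and 3 lower, against a median of 0.05 over all genes, of which 11.2% were higher and 17.9% lower. Dtl, a substrate receptor that marks p21 for degradation, was at 55.4 CPM in the monoculture, 47.6 in the co-culture, 10.02 in the spheroid and 52.3 in the tumor, and Cul1, the scaffold of the SCF ligases, was at 175, 69.5, 42.5 and 190 CPM. Skp2, which marks p27 for degradation, was at 29.7, 51.1, 19.1 and 48.6 CPM, and was lowest in the spheroid, as Dtl and Cul1 were. Its cofactor Cks1b was at 100 CPM in the monoculture and 262, 194 and 172 CPM in the other libraries. Fbxo4, Fbxo31 and Ambra1 were instead highest in the spheroid, at 27.1, 35.2 and 90.5 CPM, against 16.3, 23.0 and 77.7 in the monoculture. Of the 10 genes, 5 had a log2 ratio of spheroid to monoculture above 0 and 5 below 0. Protein levels were not measured.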
